A study of Rattus norvegicus with 24 samples.

Results

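The comparison described here set the livers of rats killed 120 h after 1 dose of ANIT (alpha-naphthylisothiocyanate) against livers of rats given the vehicle and killed at the same time. It took the 12 arrays whose labels read ANIT and 120 h (6 rats) or vehicle and 120 h (6 rats), out of 24 arrays in the series. All were male Sprague Dawley rats aged 8 weeks. The ANIT rats received 50 mg/kg into the stomach in corn oil, and the vehicle rats received corn oil alone, each at 10 ml/kg. Both groups were fasted for about 18 h before necropsy, and both were injected intraperitoneally with BrdU at 100 mg/kg about 2 h before it, so fasting and BrdU are shared by treated rats and controls. Total RNA came from a piece of whole liver, 1 rat per array, so every value is an average over all cell types in that piece. The labels describe 120 h as the time of repair, when injury was resolving, and 24 h, the other time in the series with 6 ANIT and 6 vehicle rats, as peak injury. Of 31139 probe sets, 19068 named 1 gene, and the probe set with the highest mean stood for each of 13438 genes.

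ANIT is taken up by hepatocytes, joined to glutathione and exported into bile, where the conjugate breaks down and free ANIT damages the cells lining the bile ducts (cholangiocytes). Bile flow then falls, bile constituents reach the hepatocytes, and neutrophils enter the tissue. Repair of a bile duct injury is known to involve growth of duct epithelium, matrix laid down by portal fibroblasts and stellate cells, macrophages that clear debris, and a return of hepatocyte genes that had been set back by the injury.

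The labelled tissue was checked against hepatocyte markers. Alb, which encodes albumin, had log2 values of 13.14 to 13.30 (median 13.21) in the ANIT rats and 13.18 to 13.31 (median 13.20) in the vehicle rats. Ttr, which encodes transthyretin, had 12.96 to 13.14 (median 13.01) in the ANIT rats and 13.02 to 13.13 (median 13.05) in the vehicle rats. Both lay near the top of the scale, whose highest value was 13.498, and their groups overlapped. The 10 pancreatic acinar genes, a check for neighbouring tissue, had mean log2 levels per array of 4.93 to 5.23 in the ANIT rats and 4.999 to 5.17 in the vehicle rats, and limma called 0 of the 10 (1 at an unadjusted p under 0.05). For scale, 23 probe sets that measure nonspecific signal had means over the 12 arrays from 2.42 to 2.95.

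The arrays were not alike in the spread of their values. ANIT replicates 4, 5 and 6 at 120 h, together with 3 vehicle arrays of 24 h, had the 6 lowest standard deviations over probe sets and are called narrow arrays below, and 0 of the 6 vehicle arrays at 120 h belonged to them. The mean log2 level of 9 spiked hybridisation control probe sets was 11.38 to 11.41 on those 3 ANIT arrays, 10.55 to 10.68 on the other 3, and 10.48 to 11.09 on the vehicle arrays. Between the groups this level was 11.01 ± 0.43 with ANIT and 10.86 ± 0.21 with vehicle (SD, n = 6 each; exact two-sided permutation test, p = 0.457, adjusted over 6 array measures 0.548). The beta-actin 3'/5' difference, a sign of RNA quality, was 2.76 ± 0.15 against 2.83 ± 0.08 (exact p = 0.368, adjusted 0.548). The ANIT group therefore held arrays of both kinds, and the counts over all genes are given beside those of a fit with the spiked control level as a covariate and of a fit without the 6 narrow arrays. At 120 h the latter fit set 3 ANIT rats against 6 vehicle rats. It is less precise, so a call can be lost there without a smaller change. Changes also moved in that fit. The median of the fatty acid oxidation genes described below went from -0.35 to -0.21, and that of the bile duct markers from 0.22 to 0.26.

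At 120 h, 272 of 13438 genes differed between ANIT and vehicle at a Benjamini-Hochberg adjusted p under 0.05 (limma), which is 2.02% of the genes tested. Of these, 69 were higher in the ANIT rats (0.513%) and 203 were lower (1.51%). Changes were small in most cases: 10 of the 69 and 25 of the 203 reached 2-fold (35 genes, 0.26%). The 6 ANIT arrays lay entirely beyond the 6 vehicle arrays for 287 genes (2.14%), 75 above (0.558%) and 212 below (1.58%). Of the called genes, 38 of the 69 and 138 of the 203 were separated in this way. At 24 h the same test called 2451 genes (18.2%), 1738 higher (12.9%) and 713 lower (5.31%).

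The balance between rises and falls moved with the narrow arrays. With the spiked control level as covariate, 674 genes were called (5.02%), 253 higher (1.88%) and 421 lower (3.13%), and all 272 genes of the first fit were among them with the same sign. Without the 6 narrow arrays, 194 were called (1.44%), 142 higher (1.06%) and 52 lower (0.387%). Higher genes were thus 25.4% of the calls in the first fit, 37.5% with the covariate and 73.2% without the narrow arrays. They were 53.1% when arrays were weighted by how closely they followed their group means. All 69 rises and all 203 falls kept their sign without the narrow arrays, and 45 rises and 46 falls were called in all 3 fits. Leaving out single arrays gave 48 to 72 rises. The falls numbered 109 without vehicle replicate 3, 104 without vehicle replicate 5, and 108, 104 and 102 without ANIT replicates 4, 6 and 5. With each of the 12 arrays left out in turn, 36 of the rises and 88 of the falls were called every time.

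**Figure D1:**
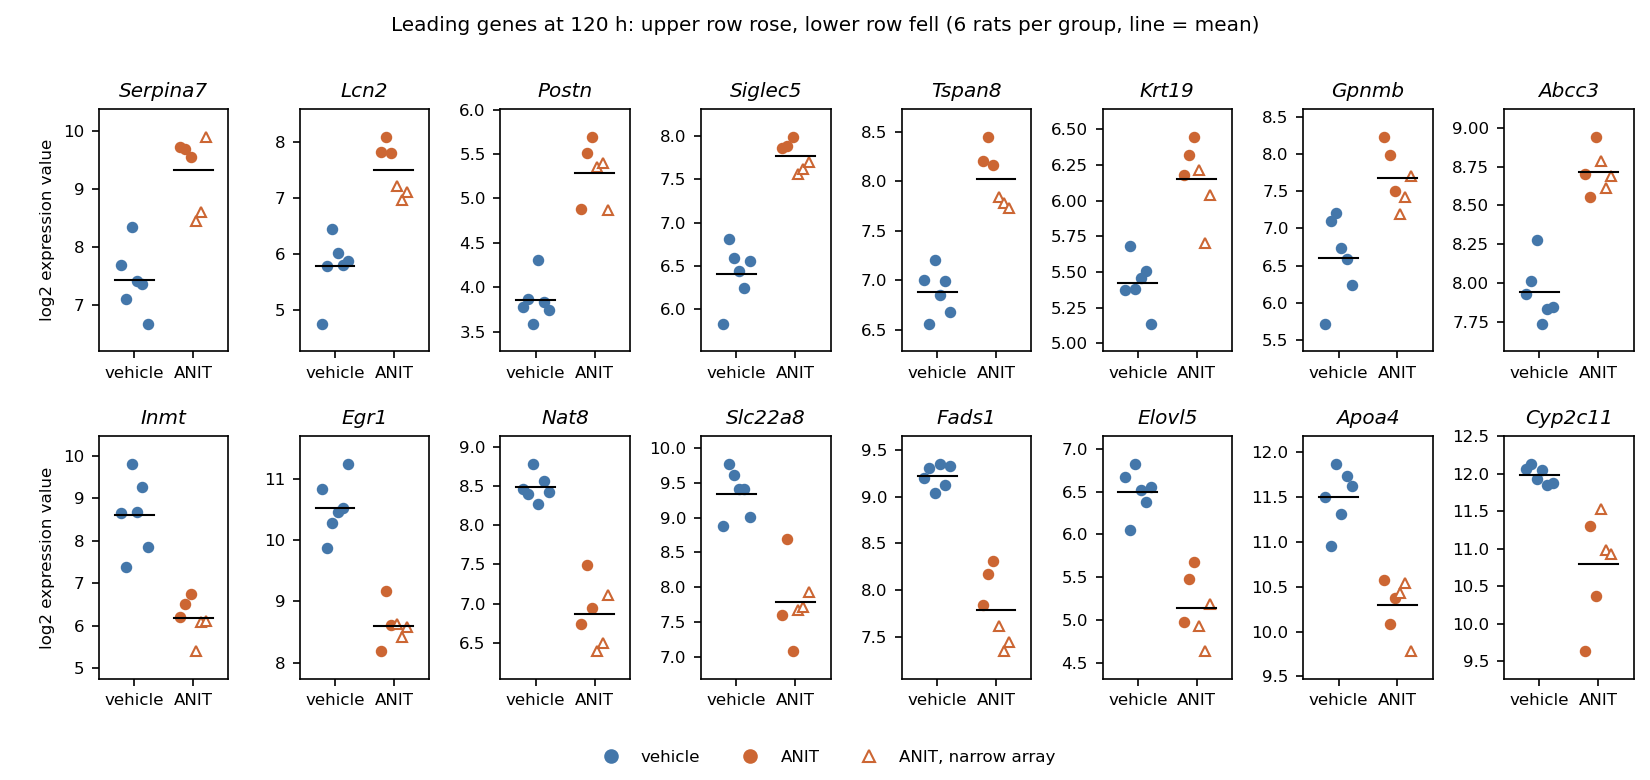
Log2 expression value (y axis) of 16 genes on each of the 12 arrays of 120 h, 6 vehicle and 6 ANIT, with the group mean as a line and narrow ANIT arrays as open triangles. For every gene shown except Gpnmb, the 6 ANIT points lie on one side of the 6 vehicle points; for Tspan8 and Lcn2 the 3 narrow arrays are the lowest of the ANIT arrays.

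The largest rise was in Serpina7, which encodes thyroxine-binding globulin, a carrier of thyroid hormone in plasma. Its log2 values were 8.45 to 9.90 (median 9.63) in the ANIT rats and 6.67 to 8.34 (median 7.38) in the vehicle rats, a change of 1.90 ± 0.33 (SE), 3.72-fold higher, adjusted p = 0.00246. Lcn2, which encodes lipocalin 2, a secreted protein that binds iron-carrying siderophores, followed with 6.96 to 8.10 (median 7.52) in the ANIT rats and 4.75 to 6.45 (median 5.84) in the vehicle rats, a change of 1.72 ± 0.36 (SE), 3.3-fold higher, adjusted p = 0.0106. For both genes the lowest ANIT rat stood above the highest vehicle rat. Hamp, which encodes hepcidin, the hormone that restrains iron release, had 11.08 to 12.46 (median 12.21) in the ANIT rats and 9.01 to 11.77 (median 10.49) in the vehicle rats. Its change was 1.501 ± 0.34 (SE), 2.83-fold higher, adjusted p = 0.019, but the groups overlapped and the call ended when vehicle replicate 3 was left out (adjusted p = 0.0541; lost in 3 of the 12 left-out fits).

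Genes of matrix, epithelium and myeloid cells were among the other large rises. Postn, which encodes periostin, a matrix protein of activated stromal cells, had 4.87 to 5.69 (median 5.38) in the ANIT rats and 3.59 to 4.30 (median 3.81) in the vehicle rats (1.43 ± 0.21 (SE), 2.7-fold higher, adjusted p = 0.000465). Siglec5, a sialic acid-binding receptor of myeloid cells, had 7.56 to 7.99 (median 7.78) in the ANIT rats and 5.83 to 6.81 (median 6.49) in the vehicle rats (1.36 ± 0.23 (SE), 2.56-fold higher, adjusted p = 0.0015). Tubb4b, a beta-tubulin, had 9.62 to 10.34 (median 10.07) in the ANIT rats and 8.37 to 9.12 (median 8.77) in the vehicle rats (1.26 ± 0.22 (SE), 2.39-fold higher, adjusted p = 0.00198), and its second probe set gave a change of 1.27. In these 3 genes no ANIT rat overlapped the vehicle range, and each call held with every single array left out. Tsx changed by 1.09 ± 0.20 (adjusted p = 0.00342) from a low level, with 1 ANIT rat at 6.25 and an ANIT median of 5.16. Pde4b, a phosphodiesterase that breaks down cyclic AMP, changed by 1.0004 ± 0.20 (adjusted p = 0.00844) on the probe set used, while its other probe set changed by 0.04. Sbspon and Mfap4, which encode extracellular matrix proteins, changed by 0.92 ± 0.14 (adjusted p = 0.000511) and 0.91 ± 0.15 (adjusted p = 0.000999).

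The largest fall was in Inmt, an N-methyltransferase of indole amines, with log2 values of 5.42 to 6.76 (median 6.16) in the ANIT rats and 7.38 to 9.80 (median 8.66) in the vehicle rats (-2.43 ± 0.40 (SE), 5.37-fold lower, adjusted p = 0.00142). Egr1, an immediate early transcription factor, had 8.20 to 9.17 (median 8.60) in the ANIT rats and 9.87 to 11.24 (median 10.49) in the vehicle rats (-1.93 ± 0.24 (SE), 3.8-fold lower, adjusted p = 8.46e-05). Nat8, an N-acetyltransferase that completes the conversion of cysteine conjugates to mercapturic acids, had 6.402 to 7.49 (median 6.84) in the ANIT rats and 8.27 to 8.77 (median 8.44) in the vehicle rats (-1.61 ± 0.16 (SE), 3.06-fold lower, adjusted p = 2.25e-06), the smallest p of the comparison. All 3 genes were separated between the groups, and all 3 stayed called with the covariate and without the narrow arrays. Paqr9 changed by -1.77 (adjusted p = 0.000105) and Tor3a, a member of the torsin ATPase family, by -1.600 (adjusted p = 0.000114). Car3, a cytosolic carbonic anhydrase, changed by -1.51 (adjusted p = 0.00408) and Abhd2, a lipid hydrolase, by -1.36 (adjusted p = 0.000511). These 4 genes were also called in both other fits.

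Genes that mark bile ducts and ductules were among the rises. Of 41 listed genes 33 were measured, 6 were called higher and 0 lower, where 0.513% of all genes were called higher. This list and those below were chosen with earlier results of these data known. Their counts beside the shares of all genes are therefore a description and no independent test. For every list at 120 h, the shares of all genes called were 0.513% higher and 1.51% lower in the first fit. They were 1.88% and 3.13% with the covariate, and 1.06% and 0.387% without the narrow arrays. The median change of the 33 was 0.22, against -0.01 over all genes, and 30 of the 33 values were positive. The mean log2 level of the list per array was 6.37 to 6.65 in the ANIT rats and 6.06 to 6.23 in the vehicle rats, with no overlap. In bulk liver, more duct cells and more RNA of these genes per duct cell cannot be told apart. The counts were 9 higher and 0 lower with the covariate (1.88% of all genes higher), and 7 higher and 0 lower without the narrow arrays (1.06%).

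Tspan8, a tetraspanin of epithelial cells, had 7.73 to 8.44 (median 8.00) in the ANIT rats and 6.56 to 7.21 (median 6.93) in the vehicle rats (1.14 ± 0.16 (SE), 2.21-fold higher, adjusted p = 0.00029). Krt19, a keratin that marks duct epithelium, had 5.70 to 6.45 (median 6.20) in the ANIT rats and 5.14 to 5.68 (median 5.42) in the vehicle rats (0.73 ± 0.12 (SE), 1.66-fold higher, adjusted p = 0.00147). Cd24, a surface glycoprotein found on duct and progenitor cells, had 6.03 to 6.42 (median 6.15) in the ANIT rats and 5.25 to 5.68 (median 5.44) in the vehicle rats (0.72 ± 0.11 (SE), 1.64-fold higher, adjusted p = 0.000406). Each of these 3 was separated between the groups. The groups overlapped for the next 3. Dmbt1, a secreted mucosal glycoprotein, had 7.40 to 8.81 (median 8.07) in the ANIT rats and 6.72 to 7.75 (median 7.07) in the vehicle rats (0.98 ± 0.22 (SE), 1.98-fold higher, adjusted p = 0.0163). Prom1, which encodes the membrane protein prominin 1, had 6.56 to 7.26 (median 6.71) in the ANIT rats and 5.96 to 6.58 (median 6.08) in the vehicle rats (0.66 ± 0.13 (SE), 1.58-fold higher, adjusted p = 0.00485), with vehicle replicate 3 alone reaching the ANIT range. Cftr, the chloride channel of the duct cell's apical membrane, had 4.21 to 4.73 (median 4.58) in the ANIT rats and 3.73 to 4.58 (median 3.99) in the vehicle rats (0.49 ± 0.12 (SE), 1.4-fold higher, adjusted p = 0.0373). Its call was lost in 9 of the 12 left-out fits and without the narrow arrays (adjusted p = 0.188). Epcam, an adhesion protein of duct epithelium, missed the threshold at 0.66 ± 0.18 (adjusted p = 0.0599) and passed with the covariate (adjusted p = 0.00062) and without the narrow arrays (adjusted p = 0.00522). Sox4, a transcription factor of developing ducts, did likewise (0.53 ± 0.19, adjusted p = 0.17, then 0.00539 and 0.00671), although its 5 probe sets ranged from -0.05 to 0.53.

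Collagen values were mostly positive, with few calls. Among 17 collagens, 15 had positive values and the median change was 0.31, but 1 was called higher and 0 lower, where 0.513% of all genes were called higher. Col6a2, a chain of the beaded-filament collagen VI, had 6.12 to 6.68 (median 6.34) in the ANIT rats and 5.33 to 5.85 (median 5.70) in the vehicle rats (0.70 ± 0.17 (SE), 1.63-fold higher, adjusted p = 0.0332), and its call was lost in 8 of the 12 left-out fits. Col1a1, the main fibrillar collagen chain, had 7.81 to 8.88 (median 8.52) in the ANIT rats and 7.17 to 7.83 (median 7.61) in the vehicle rats. Its change of 0.89 ± 0.24 missed the threshold (adjusted p = 0.0504) and passed with the covariate (adjusted p = 0.0335). With the covariate 6 collagens were called higher, where 1.88% of all genes were. Col15a1 at 0.81 (adjusted p = 0.0668) and Col5a2 at 0.58 (adjusted p = 0.0795) were 2 others of those 6; the second probe set of Col15a1 changed by 0.14. Without the narrow arrays 1 collagen was called.

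Stellate cell and fibroblast markers had 3 calls among 27, all higher: Postn and Mfap4, given above, and Loxl1, an enzyme that cross-links elastin, with 3.93 to 4.84 (median 4.39) in the ANIT rats and 3.65 to 3.98 (median 3.73) in the vehicle rats (0.59 ± 0.13 (SE), 1.5-fold higher, adjusted p = 0.0128). The list's median was 0.05, with 19 positive and 8 negative values, and 0.513% of all genes were called higher. Of 40 other matrix and remodelling genes, Lama5, a laminin chain of basement membranes (0.58 ± 0.13, adjusted p = 0.0128), and Mgp, matrix Gla protein (0.39 ± 0.10, adjusted p = 0.0425), were called higher and 0 lower, with a list median of 0.13. The 3 probe sets of Lama5 ranged from 0.01 to 0.58, and the call of Mgp was lost in 9 of the 12 left-out fits. Dcn, the small matrix proteoglycan decorin, had the largest value of that list, 1.02 ± 0.34, with wide spread in both groups (5.61 to 7.23 (median 6.20) in the ANIT rats and 4.61 to 6.50 (median 5.07) in the vehicle rats). It was not called (adjusted p = 0.139) except with the covariate (adjusted p = 0.0112) and without the narrow arrays (adjusted p = 0.0468).

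**Figure D2:**
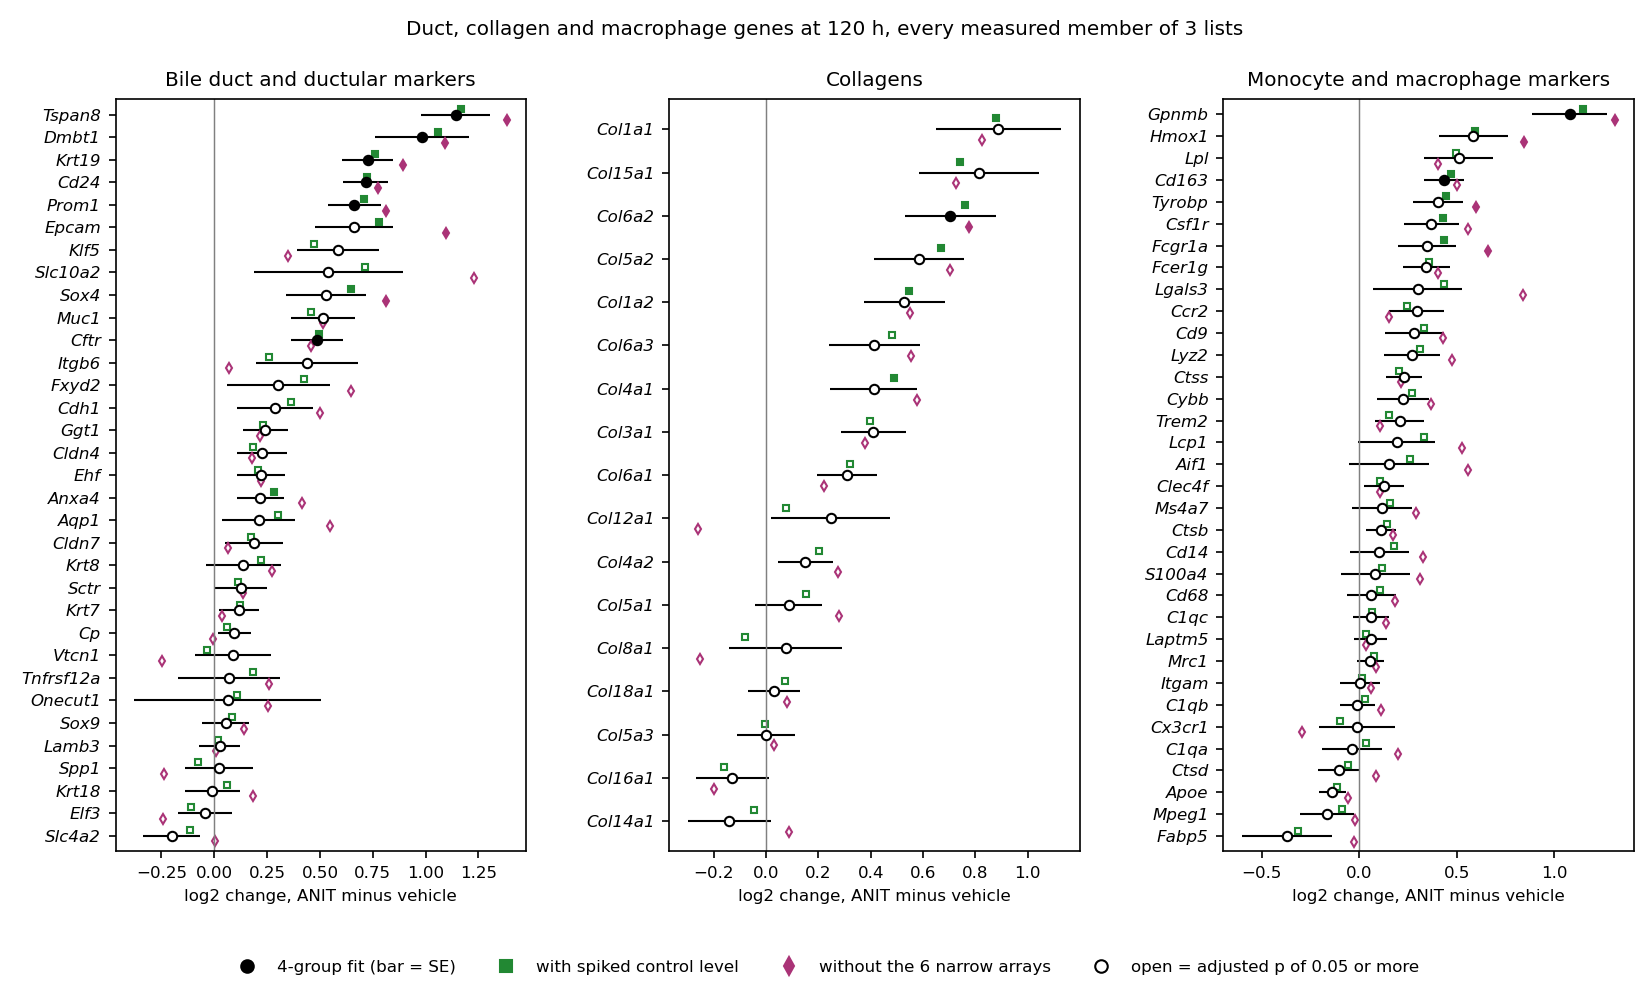
Log2 change at 120 h (x axis, ANIT minus vehicle) for each measured bile duct, collagen and macrophage gene, with the standard error of the 4-group fit as a bar, the fit with the spiked control level as squares and the fit without the 6 narrow arrays as diamonds; filled symbols passed the test. Most points lie right of 0 in all 3 panels, while 6 of 33, 1 of 17 and 2 of 34 circles are filled.

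Among 34 monocyte and macrophage markers, 2 were called higher and 0 lower, where 0.513% of all genes were called higher. The list had 27 positive values and a median of 0.14. The mean level of the list overlapped between the groups (7.62 to 8.02 in the ANIT rats and 7.47 to 7.74 in the vehicle rats). Gpnmb, a glycoprotein of phagocytic macrophages, had 7.19 to 8.23 (median 7.60) in the ANIT rats and 5.72 to 7.20 (median 6.66) in the vehicle rats (1.08 ± 0.19 (SE), 2.11-fold higher, adjusted p = 0.00273). Cd163, the haemoglobin scavenger receptor of resident macrophages, had 9.07 to 9.63 (median 9.13) in the ANIT rats and 8.59 to 8.97 (median 8.74) in the vehicle rats (0.43 ± 0.10 (SE), 1.35-fold higher, adjusted p = 0.0239). Its call was lost in 4 of the 12 left-out fits. Without the narrow arrays its change was 0.50 and was not called (adjusted p = 0.0513). Tyrobp, a signalling adaptor of myeloid cells, stood at 0.40 ± 0.13 (adjusted p = 0.112) and passed with the covariate (adjusted p = 0.0272) and without the narrow arrays (adjusted p = 0.0415). Those 2 fits called 6 and 4 of the list higher, where 1.88% and 1.06% of all genes were. Of 15 antigen presentation genes 2 were called, both of the MHC class II pathway: Cd74, the invariant chain (10.19 to 10.79 (median 10.38) in the ANIT rats and 9.24 to 10.17 (median 9.89) in the vehicle rats; 0.64 ± 0.14 (SE), 1.56-fold higher, adjusted p = 0.0139), and RT1-Da, a class II alpha chain (0.61 ± 0.16, adjusted p = 0.042). Neither passed without the narrow arrays (changes of 0.68 and 0.67, adjusted p = 0.062 and 0.117). The list's median was 0.00.

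Few calls were made among markers of other cell types. Lcn2 was the only call among 9 neutrophil markers. S100a8 and S100a9, the calprotectin subunits that fill neutrophils, stood at 0.54 ± 0.38 (adjusted p = 0.555) and 0.49 ± 0.22 (adjusted p = 0.316). S100a8 passed without the narrow arrays (adjusted p = 0.0139). No call was made by limma among 11 mast cell and dendritic cell markers, 5 erythroid genes, 22 markers of lymphocytes and NK cells or 16 endothelial ones, where 3, 0, 3 and 1 had an unadjusted p under 0.05. Mcpt1, a mast cell protease, had 5.59 to 7.21 (median 6.26) in the ANIT rats and 5.34 to 5.96 (median 5.54) in the vehicle rats and was called with the covariate (adjusted p = 0.00712) and without the narrow arrays (adjusted p = 0.00714) but not in the first fit (adjusted p = 0.075).

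Enzymes that build long polyunsaturated fatty acids fell together. Fads1 and Fads2 are the delta-5 and delta-6 desaturases, which add double bonds, and Elovl5 and Elovl2 are elongases, which lengthen the chain. They were the 4 calls among 24 genes of fatty acid synthesis and desaturation, 0 of which rose, where 1.51% of all genes were called lower. That list too was chosen with earlier results of these data known. Fads1 had 7.35 to 8.32 (median 7.73) in the ANIT rats and 9.04 to 9.35 (median 9.26) in the vehicle rats (-1.44 ± 0.18 (SE), 2.71-fold lower, adjusted p = 8.46e-05). Fads2 had 7.17 to 8.07 (median 7.33) in the ANIT rats and 8.45 to 9.19 (median 8.67) in the vehicle rats (-1.27 ± 0.20 (SE), 2.42-fold lower, adjusted p = 0.00067). Elovl5 had 4.64 to 5.67 (median 5.08) in the ANIT rats and 6.05 to 6.82 (median 6.53) in the vehicle rats (-1.35 ± 0.18 (SE), 2.55-fold lower, adjusted p = 0.000105). Elovl2 had 8.48 to 9.10 (median 8.55) in the ANIT rats and 9.17 to 9.91 (median 9.76) in the vehicle rats (-1.002 ± 0.20 (SE), 2-fold lower, adjusted p = 0.00677). In each of the 4 genes every ANIT rat lay below every vehicle rat. Each stayed called with the covariate, without the narrow arrays (changes of -1.12, -1.09, -1.12 and -0.94) and with every single array left out.

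Enzymes of saturated and monounsaturated fatty acid synthesis in the same list were not called. Fasn, fatty acid synthase, stood at 0.24 ± 0.20 (adjusted p = 0.617), Acaca, acetyl-CoA carboxylase, at 0.21 ± 0.13 (adjusted p = 0.494), and Scd, the stearoyl-CoA desaturase, at -0.26 ± 0.37 (adjusted p = 0.783). Srebf1, the transcription factor of this programme, stood at 0.13 ± 0.15 (adjusted p = 0.726). The median over the 24 genes was -0.14.

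Some cholesterol synthesis genes were among the falls. Of 22 measured members 6 were called lower and 0 higher, where 1.51% of all genes were called lower. Of the 22 values 19 were negative and the median was -0.34. The mean level of the list per array was 7.405 to 7.775 in the ANIT rats and 7.772 to 8.188 in the vehicle rats, so the groups overlapped slightly. Cyp51, the lanosterol 14-demethylase, had 8.59 to 9.49 (median 9.09) in the ANIT rats and 9.32 to 10.49 (median 9.97) in the vehicle rats (-0.89 ± 0.19 (SE), 1.86-fold lower, adjusted p = 0.0121). Msmo1, a sterol C4-methyl oxidase later in the pathway, had 6.01 to 7.15 (median 6.62) in the ANIT rats and 7.02 to 8.16 (median 7.59) in the vehicle rats (-0.99 ± 0.25 (SE), 1.98-fold lower, adjusted p = 0.0413). Nsdhl, the sterol dehydrogenase that works with Msmo1, had 8.47 to 8.82 (median 8.66) in the ANIT rats and 9.10 to 9.39 (median 9.14) in the vehicle rats (-0.55 ± 0.09 (SE), 1.47-fold lower, adjusted p = 0.0016) and was the one separated between the groups among these 3. Sqle, squalene epoxidase, had 4.54 to 5.12 (median 4.74) in the ANIT rats and 5.10 to 6.26 (median 5.51) in the vehicle rats (-0.76 ± 0.19 (SE), 1.7-fold lower, adjusted p = 0.0388). Sc5d, which forms the delta-5 double bond, and Insig2, which holds the sterol sensor in the endoplasmic reticulum, changed by -0.33 ± 0.09 (adjusted p = 0.0433) and -0.38 ± 0.10 (adjusted p = 0.0375). Calls of Nsdhl and Cyp51 held with every single array left out, while those of Msmo1, Sqle, Sc5d and Insig2 were lost in 7 to 10 of the 12. With the covariate the count was again 6, and without the narrow arrays Nsdhl alone remained called (adjusted p = 0.024). The list's median in the latter fit was -0.22.

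The sequences before the start sites of 3 of these genes are printed to show CCAAT, the box bound by the factor NF-Y; the 3 were chosen because they hold it. They are the 250 bases upstream of the start from RefSeq on GRCr8, 5′ to 3′ in the gene's direction, with each CCAAT on either strand in capitals (ATTGG where it lies on the other strand). Msmo1 lies at chr16:29746863-29747112, Nsdhl at chrX:155817110-155817359 and Fads1 at chr1:216252442-216252691, all on the plus strand.
Msmo1: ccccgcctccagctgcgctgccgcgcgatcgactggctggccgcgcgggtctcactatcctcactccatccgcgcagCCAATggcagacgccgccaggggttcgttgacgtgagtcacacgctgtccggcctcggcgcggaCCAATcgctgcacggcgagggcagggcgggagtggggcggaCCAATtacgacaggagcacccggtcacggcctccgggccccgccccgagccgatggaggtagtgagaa
Nsdhl: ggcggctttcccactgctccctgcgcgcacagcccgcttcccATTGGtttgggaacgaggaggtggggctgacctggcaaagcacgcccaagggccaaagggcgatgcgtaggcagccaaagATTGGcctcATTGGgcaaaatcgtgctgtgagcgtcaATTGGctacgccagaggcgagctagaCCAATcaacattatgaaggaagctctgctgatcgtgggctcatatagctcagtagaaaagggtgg
Fads1: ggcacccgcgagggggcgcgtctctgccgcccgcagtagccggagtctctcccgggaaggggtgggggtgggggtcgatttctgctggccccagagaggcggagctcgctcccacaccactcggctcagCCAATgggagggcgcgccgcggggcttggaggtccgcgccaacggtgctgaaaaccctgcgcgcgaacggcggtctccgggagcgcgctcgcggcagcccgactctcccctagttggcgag
Counted from the start site, Nsdhl held 5 copies of CCAAT with first bases at -208, -128, -119, -91 and -65, the first 4 on the opposite strand. Msmo1 held 3, at -173, -109 and -68, and Fads1 held 1, at -121. At least 1 copy stood in 14 of the 18 cholesterol synthesis genes with an entry, in 12 of the 19 measured genes of fatty acid synthesis and desaturation with an entry, and in 34.3% of all 27457 promoters of that length. Among the genes called lower it stood in 4 of 5 cholesterol genes with an entry (80%), beside 77.8% of the list, and in 2 of 4 fatty acid genes (50%), beside 63.2% of the list, and nothing is read from these shares. The E-box CACGTG stood in 3 of the 18, 1 of the 19 and 5.79% of all. The sterol element form TCACNCCAC stood in 0 of the 18, 0 of the 19 and 0.976% of all. All 3 motifs were searched on either strand. These are matches of letters in 1 window and no evidence that a factor was bound in these livers.

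Fatty acid oxidation and ketone body genes formed the group with the most calls. Of 30 measured members 9 were called lower and 0 higher, where 1.51% of all genes were called lower. Of the 30 values 28 were negative and the median was -0.35. The mean level of the list per array was 9.91 to 10.45 in the ANIT rats and 10.47 to 10.70 in the vehicle rats, with no overlap. Fgf21, the hormone released by the fasting liver, had 4.56 to 5.31 (median 5.11) in the ANIT rats and 5.72 to 7.49 (median 6.50) in the vehicle rats (-1.52 ± 0.30 (SE), 2.87-fold lower, adjusted p = 0.00762). Ehhadh, the peroxisomal bifunctional enzyme, had 10.41 to 11.39 (median 10.86) in the ANIT rats and 11.62 to 11.93 (median 11.69) in the vehicle rats (-0.83 ± 0.17 (SE), 1.78-fold lower, adjusted p = 0.00874). Bdh1, which forms beta-hydroxybutyrate, had 8.77 to 9.55 (median 9.18) in the ANIT rats and 9.71 to 10.15 (median 9.77) in the vehicle rats (-0.71 ± 0.16 (SE), 1.64-fold lower, adjusted p = 0.0148). Fabp1, the liver's fatty acid-binding protein, had 12.23 to 12.56 (median 12.44) in the ANIT rats and 12.70 to 12.88 (median 12.78) in the vehicle rats (-0.36 ± 0.07 (SE), 1.28-fold lower, adjusted p = 0.00564). All 4 were separated between the groups and held with every single array left out.

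The other calls of the list were smaller: Cpt1a, the carnitine transferase that admits fatty acids to mitochondria (-0.43 ± 0.11), Eci1 (-0.58 ± 0.15), Hadhb (-0.38 ± 0.09) and Acadvl (-0.35 ± 0.10) of the mitochondrial beta-oxidation steps, and Plin2, a lipid droplet coat protein (-0.34 ± 0.08). Their adjusted p ran from 0.0305 to 0.0489, and each was lost in 6 to 11 of the 12 left-out fits. The 3 probe sets of Eci1 ranged from -0.58 to 0.02 and those of Plin2 from -0.52 to 0.12. With the covariate 15 of the 30 were called lower, where 3.13% of all genes were. Without the narrow arrays Cpt1a alone was called (-0.49, adjusted p = 0.0415), the list's median was -0.21, and Fgf21 stood at -1.55 (adjusted p = 0.0741) and Ehhadh at -0.69 (adjusted p = 0.0861). Outside the list, Pex11a, a peroxisome division protein (-1.13 ± 0.18, adjusted p = 0.000798), and Hacl1, a peroxisomal lyase of alpha-oxidation (-0.76 ± 0.16, adjusted p = 0.0123), were also called lower and fully separated; without the narrow arrays their adjusted p was 0.0226 and 0.0644.

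**Figure D3:**
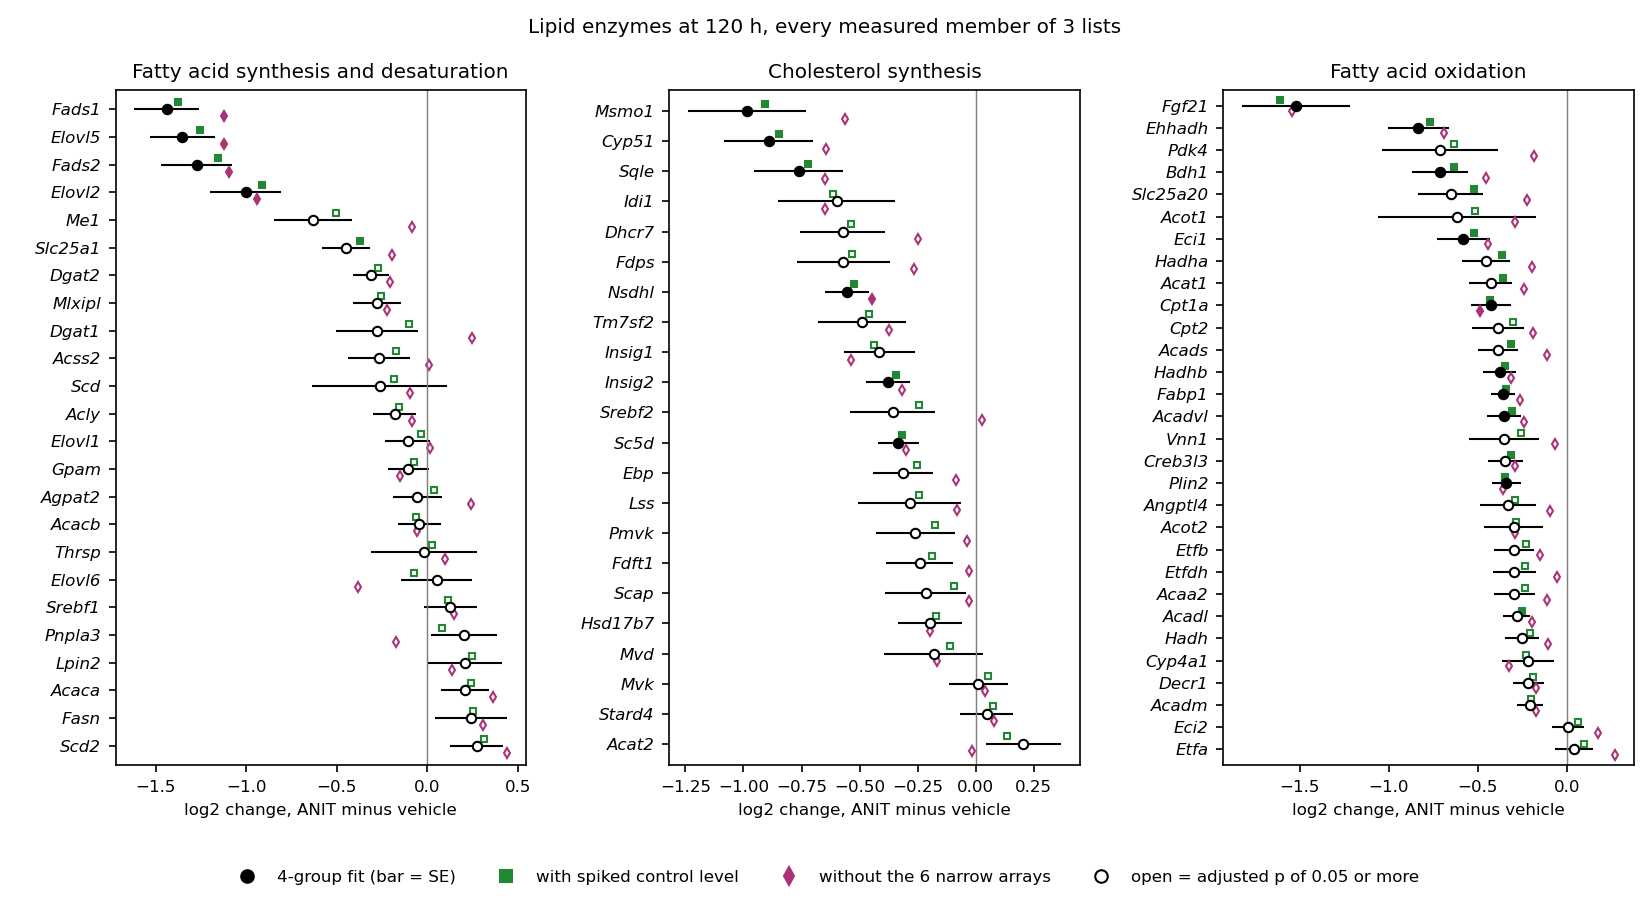
Log2 change at 120 h (x axis, ANIT minus vehicle) for every measured gene of 3 lipid lists, with the standard error of the 4-group fit as a bar, squares for the fit with the spiked control level and diamonds for the fit without the 6 narrow arrays; filled symbols passed the test. Fads1, Elovl5, Fads2 and Elovl2 are filled in all 3 fits, while most changes of the cholesterol and oxidation genes move toward 0 without the narrow arrays.

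Proteins secreted by hepatocytes were mixed. Of 50 measured, 1 was called higher (Serpina7) and 6 lower, where 0.513% and 1.51% of all genes were. Apoa4, an apolipoprotein of lipid transport, had 9.79 to 10.57 (median 10.40) in the ANIT rats and 10.96 to 11.87 (median 11.57) in the vehicle rats (-1.20 ± 0.14 (SE), 2.3-fold lower, adjusted p = 7.03e-05) and was called in all 3 fits. Apoa2, a component of high-density lipoprotein, changed by -0.47 ± 0.10 (adjusted p = 0.0111), and Masp2, a protease of the lectin complement pathway, by -0.48 ± 0.11 (adjusted p = 0.0163); the 3 probe sets of Masp2 ranged from -0.48 to 0.23. With the covariate 1 of the list was called higher and 9 lower, and without the narrow arrays 1 higher and 1 lower. Neither Apoa2 nor Masp2 was called without those arrays (changes of -0.35 and -0.23, adjusted p = 0.166 and 0.252). The call of Masp2 was lost in 4 of the 12 left-out fits. Of 25 genes of glucose handling 2 fell: Gys2, the liver's glycogen synthase (7.83 to 8.46 (median 8.16) in the ANIT rats and 8.66 to 9.25 (median 9.10) in the vehicle rats; -0.90 ± 0.18 (SE), 1.86-fold lower, adjusted p = 0.00704), and Ldha, a lactate dehydrogenase subunit (-0.36 ± 0.07, adjusted p = 0.00765). Both were called in all 3 fits. Among 46 genes of amino acid breakdown and the urea cycle, Tdo2, which opens tryptophan breakdown (0.43 ± 0.10, adjusted p = 0.0239), and Sdsl, a serine dehydratase-like enzyme (0.65 ± 0.17, adjusted p = 0.0407), were called higher. The call of Tdo2 was lost in 6 of the 12 left-out fits and without the narrow arrays (adjusted p = 0.217), and that of Sdsl was lost in 9 of the 12 but kept without those arrays (adjusted p = 0.00273). With the covariate 5 of the 46 were called higher, where 1.88% of all genes were.

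Bile acid synthesis genes, Abcb11, Slc10a1 and Nr0b2 showed no call at 120 h. None of 18 bile acid synthesis genes passed the test in limma or with the covariate or without the narrow arrays, and the list's median was -0.01 with 4 at an unadjusted p under 0.05. Cyp7a1, the rate-limiting enzyme of bile acid synthesis, had 6.32 to 8.64 (median 7.39) in the ANIT rats and 7.53 to 9.34 (median 8.14) in the vehicle rats (-0.82 ± 0.44, adjusted p = 0.418). Cyp8b1, which sets the share of cholic acid, had 10.31 to 11.02 (median 10.84) in the ANIT rats and 11.35 to 11.51 (median 11.47) in the vehicle rats; the groups did not overlap, but its change of -0.68 ± 0.23 was not called (adjusted p = 0.133). Abcb11, which pumps bile salts into the canaliculus, stood at -0.07 ± 0.11, Slc10a1, the sodium-dependent bile acid uptake carrier, at 0.04 ± 0.08, and Nr0b2, the repressor SHP that bile acids induce, at 0.04 ± 0.25 (adjusted p = 0.797, 0.865 and 0.969).

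Other transporters did change. Of 22 hepatocyte transporters 1 was called higher and 4 lower, where 0.513% and 1.51% of all genes were. Abcc3, which exports bile acid and bilirubin conjugates across the basolateral membrane to blood, had 8.55 to 8.94 (median 8.69) in the ANIT rats and 7.74 to 8.28 (median 7.89) in the vehicle rats (0.77 ± 0.15 (SE), 1.71-fold higher, adjusted p = 0.00579) and was called in all 3 fits. Slc22a8, an organic anion transporter, had 7.09 to 8.69 (median 7.69) in the ANIT rats and 8.88 to 9.77 (median 9.41) in the vehicle rats (-1.57 ± 0.25 (SE), 2.96-fold lower, adjusted p = 0.000798), and its second probe set changed by -1.13. Abcg5, a subunit of the sterol exporter of the canalicular membrane, had 5.61 to 6.15 (median 6.06) in the ANIT rats and 6.44 to 7.66 (median 6.83) in the vehicle rats (-0.93 ± 0.18 (SE), 1.9-fold lower, adjusted p = 0.00639). Slc22a5, the carnitine carrier, and Slc22a7, another organic anion transporter, changed by -0.79 ± 0.19 (adjusted p = 0.0244) and -0.49 ± 0.13 (adjusted p = 0.0448), with calls lost in 5 and 9 of the 12 left-out fits. Without the narrow arrays, Slc22a8 was the one fall of the 4 still called (-1.56, adjusted p = 0.0142). Abcg5, Slc22a5 and Slc22a7 stood at -0.82, -0.53 and -0.22 in that fit.

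Among 38 cytochrome P450 and flavin monooxygenase genes 1 was called higher and 3 lower, where 0.513% and 1.51% of all genes were. Cyp2c11, the male-specific P450 that growth hormone pulses maintain, had 9.64 to 11.54 (median 10.96) in the ANIT rats and 11.86 to 12.13 (median 11.99) in the vehicle rats (-1.19 ± 0.20 (SE), 2.28-fold lower, adjusted p = 0.00183). Cyp1a2, a pericentral P450 that oxidises aromatic amines, had 9.70 to 10.43 (median 9.95) in the ANIT rats and 10.54 to 11.18 (median 10.91) in the vehicle rats (-0.85 ± 0.12 (SE), 1.8-fold lower, adjusted p = 0.000273). The third fall was Cyp51, given above, and the rise was Cyp2c22 (0.46 ± 0.11, adjusted p = 0.0284; lost in 6 of the 12 left-out fits). Sult1e1, which sulphates oestrogens, was the one call among 27 conjugation enzymes (-0.42 ± 0.11, adjusted p = 0.0399; lost in 10 of the 12 left-out fits).

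Growth hormone dependent genes held 5 falls and 0 rises among 26, with a median of -0.22, where 1.51% of all genes were called lower. Beside Cyp2c11, Obp3, a male-biased urinary lipocalin of the liver, had 8.16 to 10.89 (median 9.08) in the ANIT rats and 10.45 to 11.47 (median 11.27) in the vehicle rats (-1.90 ± 0.43 (SE), 3.73-fold lower, adjusted p = 0.0163). Nox4, a superoxide-forming oxidase placed on this list, had 4.85 to 6.08 (median 5.01) in the ANIT rats and 5.79 to 7.50 (median 6.34) in the vehicle rats (-1.29 ± 0.26 (SE), 2.45-fold lower, adjusted p = 0.00761), with ANIT replicate 2 at the top of its group. Igfals and Igfbp3, the partners of circulating IGF-1, changed by -0.75 ± 0.19 (adjusted p = 0.0373) and -0.68 ± 0.18 (adjusted p = 0.0407), calls that were lost in 9 and 8 of the 12 left-out fits. Without the narrow arrays Cyp2c11 alone was called (-1.54, adjusted p = 0.00273). In that fit Obp3 stood at -1.95, Nox4 at -1.18, Igfals at -0.46 and Igfbp3 at -0.29.

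Stress and early response lists were mostly lower or without calls. Of 26 immediate early genes 4 were called lower and 0 higher, with a median of -0.28, where 1.51% of all genes were called lower. After Egr1 came Dusp1, a MAP kinase phosphatase (8.51 to 9.37 (median 9.15) in the ANIT rats and 9.18 to 10.36 (median 9.93) in the vehicle rats; -0.85 ± 0.17 (SE), 1.81-fold lower, adjusted p = 0.00639), whose other probe set changed by -0.11. Klf10, a zinc finger factor (-0.74 ± 0.19, adjusted p = 0.0375), and Ier2 (-0.63 ± 0.16, adjusted p = 0.039) were the others, with calls lost in 7 and 8 of the 12 left-out fits. With the covariate 5 of the 26 were called lower. Without the narrow arrays Egr1 and Dusp1 were called, with a list median of -0.13. Klf10 and Ier2 were not called in that fit (changes of -0.51 and -0.43, adjusted p = 0.167 and 0.339). All 18 heat shock genes had negative values with a median of -0.28, and 3 were called lower: Ahsa1, an activator of Hsp90 (-0.48 ± 0.11, adjusted p = 0.019), Dnaja1 (-0.34 ± 0.08, adjusted p = 0.0325) and Hspa4 (-0.43 ± 0.11, adjusted p = 0.042). None of the 3 was called without the narrow arrays (changes of -0.29, -0.30 and -0.26, adjusted p = 0.191, 0.175 and 0.38), where the list's median was -0.11. In the first fit 1.51% of all genes were called lower.

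Of 27 acute phase genes Lcn2 and Hamp were called higher and 0 lower, with a median of -0.02, where 0.513% of all genes were called higher. Slc40a1, ferroportin, the iron exporter that hepcidin acts on, had 11.09 to 11.32 (median 11.17) in the ANIT rats and 10.71 to 10.91 (median 10.81) in the vehicle rats (0.38 ± 0.08 (SE), 1.3-fold higher, adjusted p = 0.0163). Hjv, hemojuvelin, a co-receptor in hepcidin regulation, had 8.69 to 9.31 (median 9.09) in the ANIT rats and 9.53 to 9.79 (median 9.58) in the vehicle rats (-0.58 ± 0.14 (SE), 1.49-fold lower, adjusted p = 0.032), a call lost in 7 of the 12 left-out fits and without the narrow arrays (adjusted p = 0.232). These 2 and Hamp were the calls among 17 metallothionein and iron genes. Among 30 genes of the endoplasmic reticulum stress and amino acid response, Nupr1, a stress-induced nuclear protein, was called higher (10.70 to 11.34 (median 10.84) in the ANIT rats and 9.77 to 10.87 (median 10.09) in the vehicle rats; 0.81 ± 0.18 (SE), 1.75-fold higher, adjusted p = 0.0137) and Atf5, a transcription factor, lower (-0.36 ± 0.08, adjusted p = 0.017). The call of Atf5 was lost in 2 of the 12 left-out fits and without the narrow arrays (-0.26, adjusted p = 0.197). No gene of 24 Nrf2 targets was called by limma in the first fit, where 5 had an unadjusted p under 0.05. Hmox1, which degrades haem, had 7.95 to 8.91 (median 8.11) in the ANIT rats and 7.54 to 7.86 (median 7.72) in the vehicle rats, without overlap; its change of 0.58 ± 0.18 missed the threshold (adjusted p = 0.0885) and passed with the covariate (adjusted p = 0.0487) and without the narrow arrays (adjusted p = 0.0208).

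Cell division genes were not called higher. Of 41 mitosis genes limma called 0 in either direction (5 at an unadjusted p under 0.05), with 29 positive values and a median of 0.09. Mki67, a marker of cycling cells, had 6.52 to 8.23 (median 7.34) in the ANIT rats and 5.84 to 7.41 (median 7.13) in the vehicle rats (0.39 ± 0.44, adjusted p = 0.721), and its change was 0.06 with the covariate and -0.29 without the narrow arrays. Of 37 DNA replication genes 1 was called, Mcm10, a replication origin factor, and it was lower (4.41 to 4.90 (median 4.66) in the ANIT rats and 4.85 to 5.28 (median 5.10) in the vehicle rats; -0.47 ± 0.11 (SE), 1.38-fold lower, adjusted p = 0.0188; lost in 3 of the 12 left-out fits). Ccnd1, cyclin D1, which starts the passage through G1, had 7.05 to 7.81 (median 7.57) in the ANIT rats and 7.89 to 8.92 (median 8.43) in the vehicle rats; its change of -0.90 ± 0.25 was not called (adjusted p = 0.0634) but passed with the covariate (adjusted p = 0.0454). Without the narrow arrays Ccnd1 changed by -0.74 and was not called (adjusted p = 0.321), and it was uncalled in all 12 left-out fits. Its 3 probe sets ranged from -0.90 to -0.18.

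Other lists held single calls or none. Cxcl12, a chemokine of stromal and sinusoidal cells, was lower among 38 chemokines, cytokines and adhesion genes (9.73 to 10.22 (median 9.90) in the ANIT rats and 10.25 to 10.76 (median 10.44) in the vehicle rats; -0.51 ± 0.10 (SE), 1.43-fold lower, adjusted p = 0.0084). Ifi27 was lower among 27 interferon genes (-0.47 ± 0.12, adjusted p = 0.0425), and Usp2, a deubiquitinase under clock control, among 18 clock genes (-0.93 ± 0.24, adjusted p = 0.0396), calls lost in 9 and 7 of the 12 left-out fits. Without the narrow arrays Cxcl12 and Ifi27 were not called (changes of -0.42 and -0.44, adjusted p = 0.0975 and 0.0992). No member was called among 25 nuclear receptors and liver transcription factors, 16 p53 targets or 29 genes of apoptosis and the Notch, Hippo and Wnt pathways, where limma gave 1, 2 and 1 an unadjusted p under 0.05. The single calls among 27 cytoskeleton genes and 23 zonation genes were Tubb4b and Cyp1a2, given above. Over all genes the unadjusted p was under 0.05 for 1865.

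**Figure D4:**
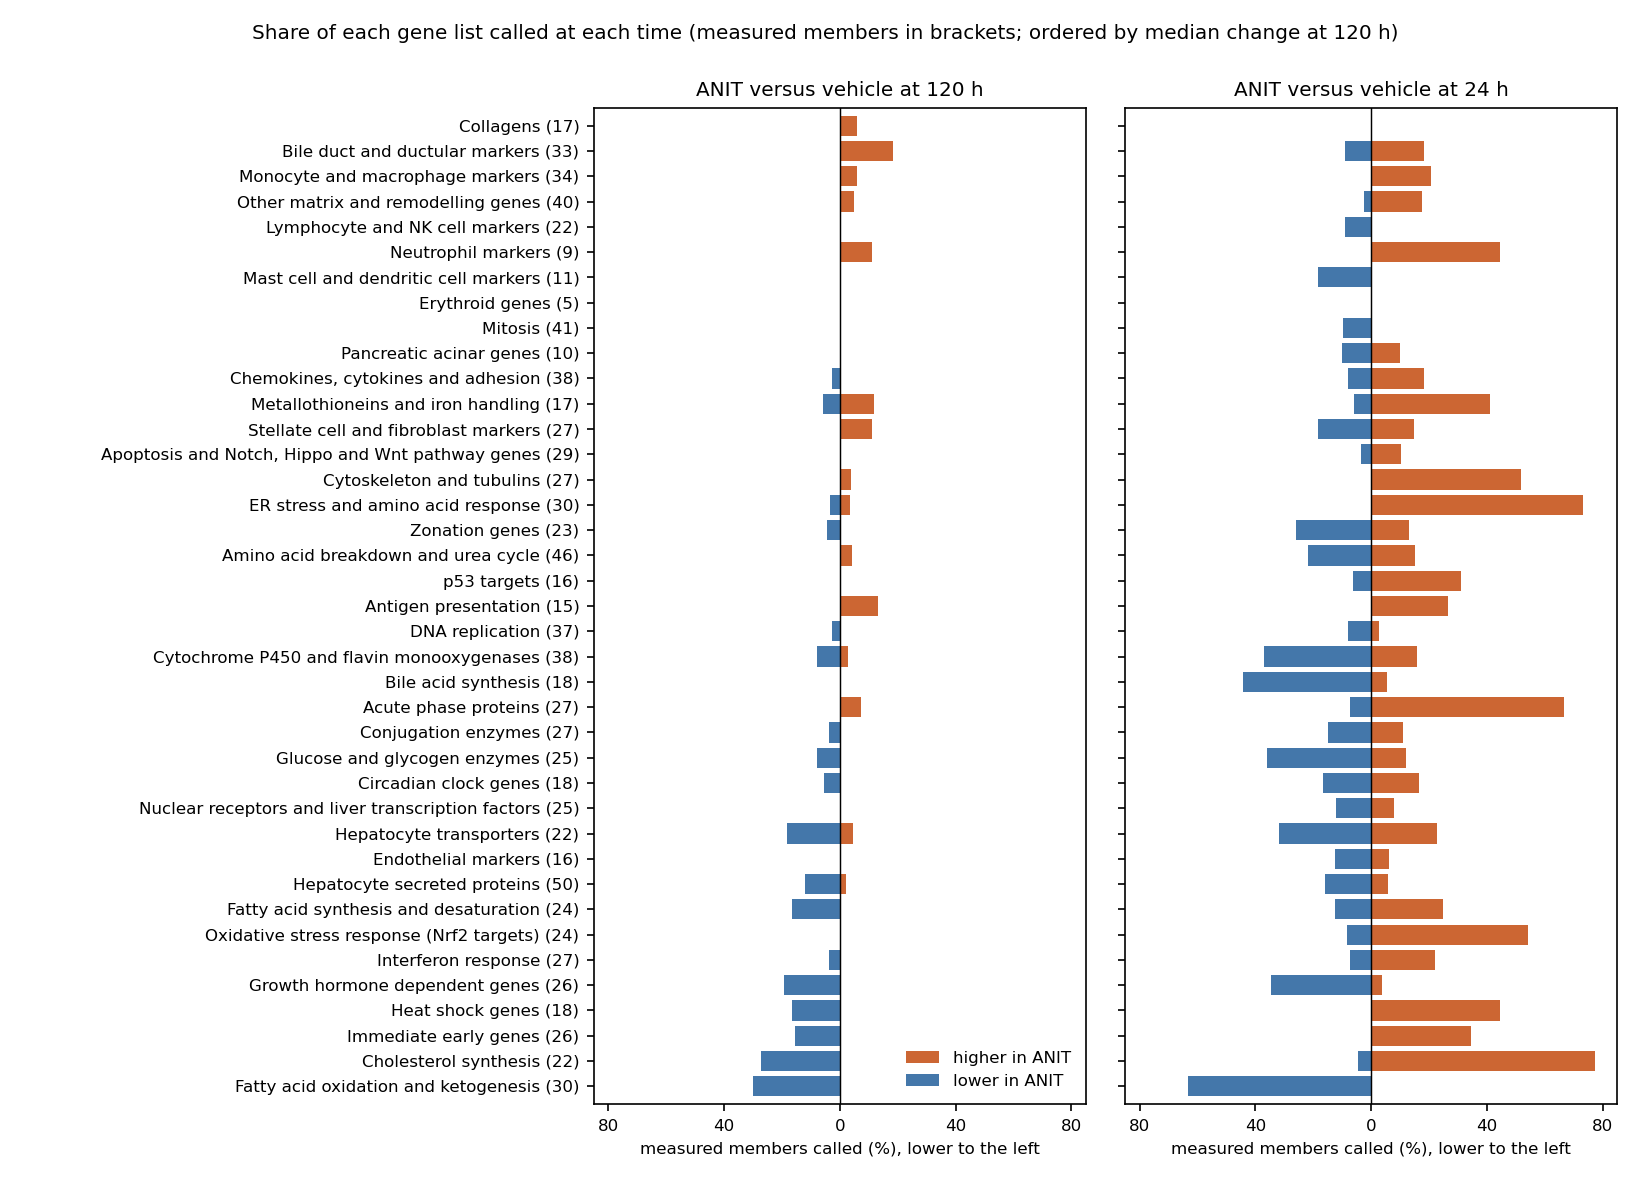
Share of the measured members of each list (number in brackets) that limma called higher (right) or lower (left) in ANIT rats, at 120 h in the left panel and at 24 h in the right panel, in order of the median change at 120 h. At 120 h the lowest rows are fatty acid oxidation (9 of 30 lower) and cholesterol synthesis (6 of 22 lower); at 24 h cholesterol synthesis had 17 of 22 higher.

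The effect at 120 h was then set against the effect at 24 h, each against its own vehicle group of 6. The difference between the 2 effects was called for 1924 genes (14.3%), 448 with a higher (3.33%) and 1476 with a lower (11%) effect at 120 h. With the covariate 1748 were called (13%), 821 higher (6.11%) and 927 lower (6.9%). The count was 852 without the narrow arrays and 438 with the beta-actin 3'/5' difference as covariate. That difference was 2.98 to 3.18 on the ANIT arrays of 24 h and 2.77 to 2.91 on the vehicle arrays of 24 h, and its part in the result was not tested. Among the 69 genes higher at 120 h, 12 were also higher at 24 h, 11 were lower and 46 were not called there, and the difference was called for 48. Among the 203 genes lower at 120 h, 61 were also lower at 24 h, 31 were higher and 111 were not called there, and the difference was called for 109. The 73 genes called with the same sign at both times were 26.8% of the 120 h calls and 2.98% of the 24 h calls, and 42 were called with opposite signs.

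Some of the duct and matrix rises differed from the effect at 24 h and others did not. Tspan8 changed by -0.36 at 24 h and 1.14 at 120 h (adjusted p of the difference = 0.000102). Krt19 went from -0.16 to 0.73 (0.000995), Cd24 from -0.38 to 0.72 (2.23e-05), and Postn from -0.24 to 1.43 (0.000509), each value in brackets being the adjusted p of the difference. Siglec5 was lower at 24 h (-1.03, adjusted p = 0.00187) and higher at 120 h, a difference of 2.39 (adjusted p = 1.97e-05). Serpina7 stood at 0.03 at 24 h, a difference of 1.87 (adjusted p = 0.00913). Dmbt1 stood at 0.93 and 0.98 at 24 and 120 h, a difference that was not called (adjusted p = 0.912). For the ductular list as a whole, 6 of 33 were called higher and 3 lower at 24 h, where 12.9% and 5.31% of all genes were. The list's median at 24 h was -0.04, and the difference was called higher for 7 and lower for 4. It was not called for Lama5, Mgp and Col6a2 (adjusted p = 0.65, 0.283 and 0.0576), although that of Col6a2 passed with the covariate (adjusted p = 0.0153). Among the 40 other matrix and remodelling genes the difference was called higher for 1 and lower for 6. Over all genes it was called higher for 3.33% and lower for 11%, and the lower calls of both lists are near that share.

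Most calls in cholesterol synthesis were higher at 24 h, while those at 120 h were lower. At 24 h, 17 of 22 members were called higher and 1 lower, with a median of 0.85, and the difference was called lower for 17. Over all genes, 12.9% were called higher at 24 h and the difference was called lower for 11%. Insig2 was the 1 member lower at 24 h (-0.68, adjusted p = 9.83e-06). It was lower at 120 h too, and its difference was not called (adjusted p = 0.127). Sqle stood at 2.83 at 24 h and -0.76 at 120 h (adjusted p of the difference = 7.61e-09), and Msmo1 at 1.97 and -0.99 (6.89e-06). The vehicle groups themselves differed by -0.78 for Sqle and -0.91 for Msmo1 between 120 h and 24 h (adjusted p = 0.135 and 0.213). Of the polyunsaturated fatty acid enzymes, Fads1 (-0.03 at 24 h; adjusted p of the difference = 0.000498) and Elovl5 (0.26; 0.000116) changed between the times, while Fads2 (-0.76; 0.218) and Elovl2 (-1.45; 0.281) were already lower at 24 h and the difference was not called. Of the 30 fatty acid oxidation genes, 19 were called lower at 24 h, where 5.31% of all genes were, with a median of -0.42, against 9 at 120 h and 1 at 120 h without the narrow arrays.

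Calls among all genes were also fewer at 120 h, where 0.513% were called higher against 12.9% at 24 h, and the counts of the acute lists stand beside those shares. A lower effect at 120 h was called for 11% of all genes. These shares and the list counts that follow are of the first fit. At 120 h, 1.88% of all genes were called higher with the covariate and 1.06% without the narrow arrays. With the covariate a lower effect at 120 h was called for 6.9%. Of 27 acute phase genes 18 were higher at 24 h against 2 at 120 h, and 12 had a called lower effect at 120 h. Lcn2 stood at 5.33 at 24 h and 1.72 at 120 h (adjusted p of the difference = 3.75e-05). Of 30 endoplasmic reticulum stress genes 22 were higher at 24 h, and 20 had a called lower effect at 120 h. Immediate early genes had 9 of 26 higher at 24 h against 4 lower at 120 h, with 12 called differences, all lower, led by Egr1 (0.50 to -1.93, adjusted p of the difference = 3.91e-05). Cyp1a2 was higher at 24 h (0.85, adjusted p = 1.24e-05) and lower at 120 h, with an adjusted p of 6.14e-07 for the difference, and Usp2 did the same (1.22 to -0.93, 0.000116). Nr0b2 had been 2.35 at 24 h (adjusted p of the difference = 9e-05), Slc10a1 -0.54 (0.0014), Cyp8b1 -2.45 (0.0005) and Cyp7a1 -1.78 (0.309, not called).

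**Figure D5:**
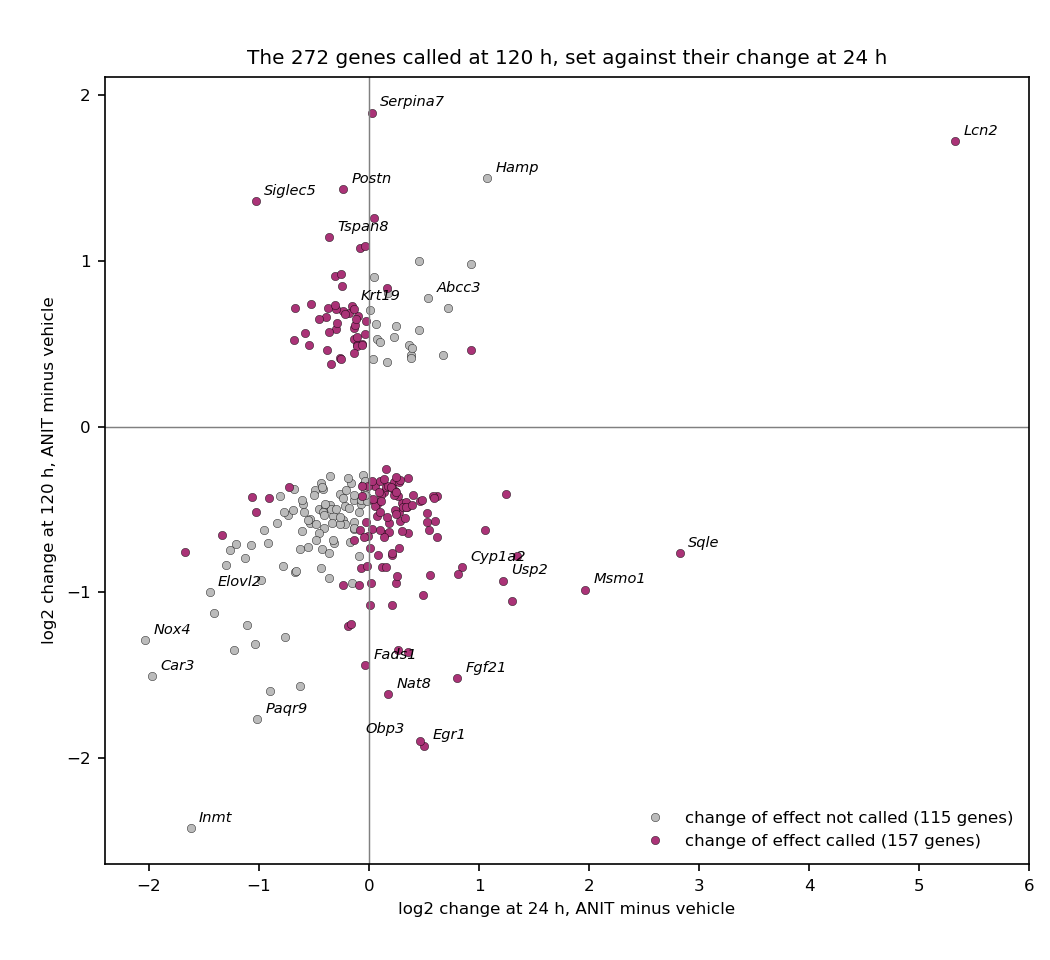
Log2 change at 24 h (x axis) and at 120 h (y axis), ANIT minus vehicle, of the 272 genes called at 120 h, with colour for the 157 whose difference between the times was called. Lcn2 lies far right, high at both times, while Sqle and Msmo1 lie right of 0 and below 0; Inmt, Nox4 and Car3 lie in the lower left, lower at both times.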

How the data were processed

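The deposited table holds log2 values of 31139 probe sets on 24 arrays, made by the authors with RMA and Partek, per the submitters' processing notes, which give no role or version for either. The annotation version and hybridisation batches were not given in the sources used here. That the scale is log2 was read from the values (2.34 to 13.498). Of the probe sets, 19068 named 1 gene in the platform annotation, 573 named several and 11498 had no listed gene; the probe set with the highest mean was kept for each of 13438 genes. RMA was taken as deposited, with no further normalization, and it is known to compress low values.

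Differences were fitted with limma 3.58.1 in R 4.3.3, as 4 group means over 24 arrays with moderated variance. P-values were adjusted by Benjamini-Hochberg over all genes, with 0.05 as threshold. Array measures were compared by exact two-sided permutation tests. With 6 rats a group, the number of arrays limits the precision (median standard error 0.134 at 120 h).

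The members and the 39 gene lists (957 of 1113 genes measured) were chosen with earlier results of these data known. Genes were named by rule: the 10 largest rises and falls with separated groups, up to 4 genes per list by p, the 5 largest differences between times in each direction among genes called at 120 h, and 8 set genes. Cftr, Dmbt1, Sc5d, Cpt1a, Acadvl, Hadhb, Eci1, Plin2, Pex11a, Hacl1, Igfbp3, Slc22a7, Alb, Ttr, Epcam, Sox4, Fasn, Acaca, Scd and Srebf1 lie outside that rule and were chosen after their values were seen. Promoter sequences come from RefSeq (GRCr8). Replicates carry numbers in accession order only. Alternatives were other covariates, normalizations, filters, probe set rules, array weights, a variance trend and left-out arrays.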

Additional observations from a re-analysis of the deposited data

Results flagged for a closer look

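Single arrays stood apart from the other 5 of their group in 11 of the 232 groups tested (Dixon's test of the gap to the nearest array). Chance does this in about 1 in 20 groups. In the ANIT group these log2 values were Cd163 on replicate 2 (9.635, the others 9.069 to 9.22), Tor3a on replicate 3 (7.8, the others 6.544 to 6.955), Cpt1a on replicate 1 (11.44, the others 11.75 to 11.86) and Nox4 on replicate 2 (6.077, the others 4.852 to 5.3). In the vehicle group they were Pde4b on replicate 1 (8.134, the others 9.085 to 9.437), Prom1 on replicate 3 (6.581, the others 5.962 to 6.135), Cftr on replicate 3 (4.578, the others 3.726 to 4.013), Slc22a7 on replicate 3 (9.997, the others 9.629 to 9.759), Abcb11 on replicate 3 (10.29, the others 9.924 to 10), Alb on replicate 2 (13.31, the others 13.18 to 13.22) and Fasn on replicate 2 (7.396, the others 6.866 to 7.044).

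The ANIT effect differed between the times by limma's test of the difference for 55 of the genes named, beside 14.3% of all genes. Some of the named genes were picked for their call at 120 h or for the size of this difference. The count is therefore no independent result. Values are the 120 h effect minus the 24 h effect in log2 units, with the effect at 24 h and then at 120 h in brackets. Genes whose effect was higher at 120 h, from a negative value at 24 h, were Postn 1.671 (-0.24 to 1.43), Siglec5 2.387 (-1.03 to 1.36), Tspan8 1.503 (-0.36 to 1.14), Tsx 1.132 (-0.04 to 1.09), Sbspon 1.176 (-0.25 to 0.92), Mfap4 1.217 (-0.31 to 0.91), Gpnmb 1.16 (-0.08 to 1.08), Krt19 0.8833 (-0.16 to 0.73), Cd24 1.093 (-0.38 to 0.72), Prom1 1.056 (-0.39 to 0.66), Cftr 0.5925 (-0.11 to 0.49), Col5a2 0.8866 (-0.30 to 0.58), Loxl1 0.8844 (-0.30 to 0.59), Cd74 0.6689 (-0.03 to 0.64), RT1-Da 0.7368 (-0.13 to 0.61), Slc40a1 0.7226 (-0.35 to 0.38), Sdsl 0.7621 (-0.11 to 0.65), Mcpt1 1.371 (-0.64 to 0.73), Slc10a1 0.583 (-0.54 to 0.04) and Sox4 1.174 (-0.64 to 0.53). Genes that were near or above 0 at 24 h and higher at 120 h were Serpina7 1.869 (0.03 to 1.90) and Tubb4b 1.207 (0.05 to 1.26). Genes lower at both times with a smaller size at 120 h were Cpt1a 0.638 (-1.06 to -0.43), Hacl1 0.9158 (-1.68 to -0.76), Cxcl12 0.5096 (-1.02 to -0.51) and Cyp8b1 1.771 (-2.45 to -0.68). Genes above 0 at 24 h and below 0 at 120 h were Egr1 -2.43 (0.50 to -1.93), Nat8 -1.79 (0.18 to -1.61), Fgf21 -2.325 (0.80 to -1.52), Abhd2 -1.712 (0.35 to -1.36), Elovl5 -1.612 (0.26 to -1.35), Cyp51 -1.702 (0.81 to -0.89), Msmo1 -2.953 (1.97 to -0.99), Nsdhl -0.8828 (0.33 to -0.55), Sqle -3.59 (2.83 to -0.76), Sc5d -0.6011 (0.27 to -0.33), Masp2 -0.5335 (0.05 to -0.48), Cyp1a2 -1.698 (0.85 to -0.85), Obp3 -2.36 (0.46 to -1.90), Gys2 -1.451 (0.56 to -0.90), Ldha -0.5336 (0.17 to -0.36), Ier2 -1.168 (0.54 to -0.63), Usp2 -2.151 (1.22 to -0.93), Ahsa1 -0.8323 (0.35 to -0.48) and Abcb11 -0.5288 (0.45 to -0.07). Genes below 0 at both times with a larger size at 120 h were Fads1 -1.406 (-0.03 to -1.44), Fabp1 -0.2917 (-0.07 to -0.36), Apoa4 -1.01 (-0.19 to -1.20), Cyp2c11 -1.025 (-0.16 to -1.19) and Atf5 -0.3505 (-0.01 to -0.36). Genes above 0 at both times with a smaller size at 120 h were Lcn2 -3.604 (5.33 to 1.72), Cyp2c22 -0.4671 (0.93 to 0.46), Nr0b2 -2.317 (2.35 to 0.04), Fasn -2.522 (2.76 to 0.24) and Acaca -0.8882 (1.10 to 0.21). Their adjusted p for the difference ran from 7.61e-09 to 0.048. With the spiked control level as covariate, 5 of these differences were not called, with the adjusted p in brackets: Cyp2c22 (0.0702), Fabp1 (0.0991), Masp2 (0.0582), Atf5 (0.115) and Abcb11 (0.088).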

How the results depend on the processing

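The 69 rises at 120 h became 253 with the spiked control level as covariate, 191 with quantile normalization, 38 with arrays shifted to a common median, 135 with array weights and 142 without the 6 narrow arrays, and 231 with only the 120 h arrays and the spiked control level, an alternative chosen after seeing the data. The 203 falls became 421 with the spiked control level, 117 with the beta-actin ratio as covariate, 130 with only the 120 h arrays, 105 with the common median, 119 with array weights, 52 without the narrow arrays and 309 with only the 120 h arrays and the spiked control level. Higher genes were 41.5% of the calls after quantile normalization and 26.6% with the common median. Leaving out 1 array gave 48 to 72 rises and 102 to 271 falls. The 1924 differences between times became 438 with the beta-actin ratio and 852 without the narrow arrays, and 1430 to 3148 with 1 array left out, the highest without vehicle replicate 1 of 24 h. The cause was not tested. Of 87 calls among 187 named genes, 87 were kept with the spiked control level, 48 without the narrow arrays, and 58 to 81 with 1 array left out; no named call reversed its sign under the alternatives run. Of 897 recomputed list medians, 22 moved by more than 1 SD. No paired analysis was possible because each array came from a different rat and the labels give no pairing. Signal over background limits the low genes, such as Cftr and Tsx, whose changes RMA is known to understate.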
